A study of Mus musculus with 3 samples.

Results

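The 32 genes described here encode 11 plasma membrane amino acid transporters and 21 enzymes of amino acid, folate and polyamine metabolism. They were chosen by name and matched by gene identifier, out of 55536 annotated mouse genes in the tables, of which 22028 are protein-coding. Their levels come from RNA-seq of polyadenylated transcripts in activated regulatory T cells. These cells, called Treg, are CD4 T cells that express Foxp3 and hold immune responses in check. The cells are primary mouse cells, labelled male, 3 weeks old and from a whole organism. The labels give no strain, genotype or way of activation. A single biological replicate was sequenced as technical replicates 1, 2 and 3, referred to as libraries 1, 2 and 3. They form 1 group, so no conditions were compared. Every SD below measures the spread between libraries, which may be technical. Each p-value sets the difference between these libraries against counting error only and depends on the number of reads.

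T cells that leave quiescence take up more amino acids for protein synthesis and for building blocks. Large neutral amino acids enter through the LAT family, of which Slc7a5 needs the heavy chain Slc3a2 to reach the membrane, and glutamine enters through Slc1a5 and the Slc38 carriers. Serine, imported or made from a glycolytic intermediate, gives a carbon unit to folate in the cytosol or the mitochondrion, and folate passes it on to purines and thymidylate. The methionine cycle supplies methyl groups, and its S-adenosylmethionine, once decarboxylated, is used together with ornithine to make polyamines.

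The tables hold 28419259 to 31959927 gene reads per library, and levels are given in TPM, a transcript abundance scaled for length and for the library's total. All 8 Treg markers examined were detected, with sums of 3351, 3402 and 3150 TPM in libraries 1, 2 and 3. Erythroid markers stood apart in library 1. They summed to 14042, 1180 and 811 TPM in libraries 1, 2 and 3, and all 8 were highest in library 1. Proliferation genes summed to 716, 374 and 508 TPM, with 9 of 10 highest in library 1. Monocyte markers summed to 130, 68.0 and 81.8 TPM, and B cell markers to 50.9, 46.0 and 75.1 TPM. Dendritic cell markers, which include the antigen presentation genes Cd74 and H2-Ab1, summed to 600, 166 and 379 TPM. Most of that sum was Cd74, with 460, 138 and 301 TPM, and H2-Ab1, with 133, 24.9 and 74.6 TPM. Only these 2 of the 8 dendritic markers reached 1 TPM in every library. Neutrophil markers summed to 10.6, 0.85 and 1.04 TPM, with Elane at 0 in all libraries. Markers of CD8 T and NK cells summed to 28.5, 21.5 and 31.3 TPM, with the NK receptor Ncr1 at 0. In such bulk RNA, fewer cells of a type and less RNA per cell cannot be told apart.

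Most of the transport and metabolic genes were expressed, and 23 of the 32 exceeded the median of detected protein-coding genes. Of the 32, 28 reached 1 TPM in every library, the limit used here for detection, beside 48.1% of all protein-coding genes. The 4 others were Slc7a11, Slc1a4, Gldc and Arg2. The median over the 32 genes was 48.4 TPM, and over the 28 detected genes 56.8 TPM, against 1.17 TPM for all protein-coding genes and 30.1 TPM for the detected ones. 6 genes exceeded 100 TPM on average: Mat2a, Slc1a5, Phgdh, Glud1, Slc3a2 and Got2. At that level or above were 8.31% of all protein-coding genes and 17.3% of the detected ones. All 32 together summed to 1959, 2018 and 1769 TPM in libraries 1, 2 and 3.

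**Figure D1:**
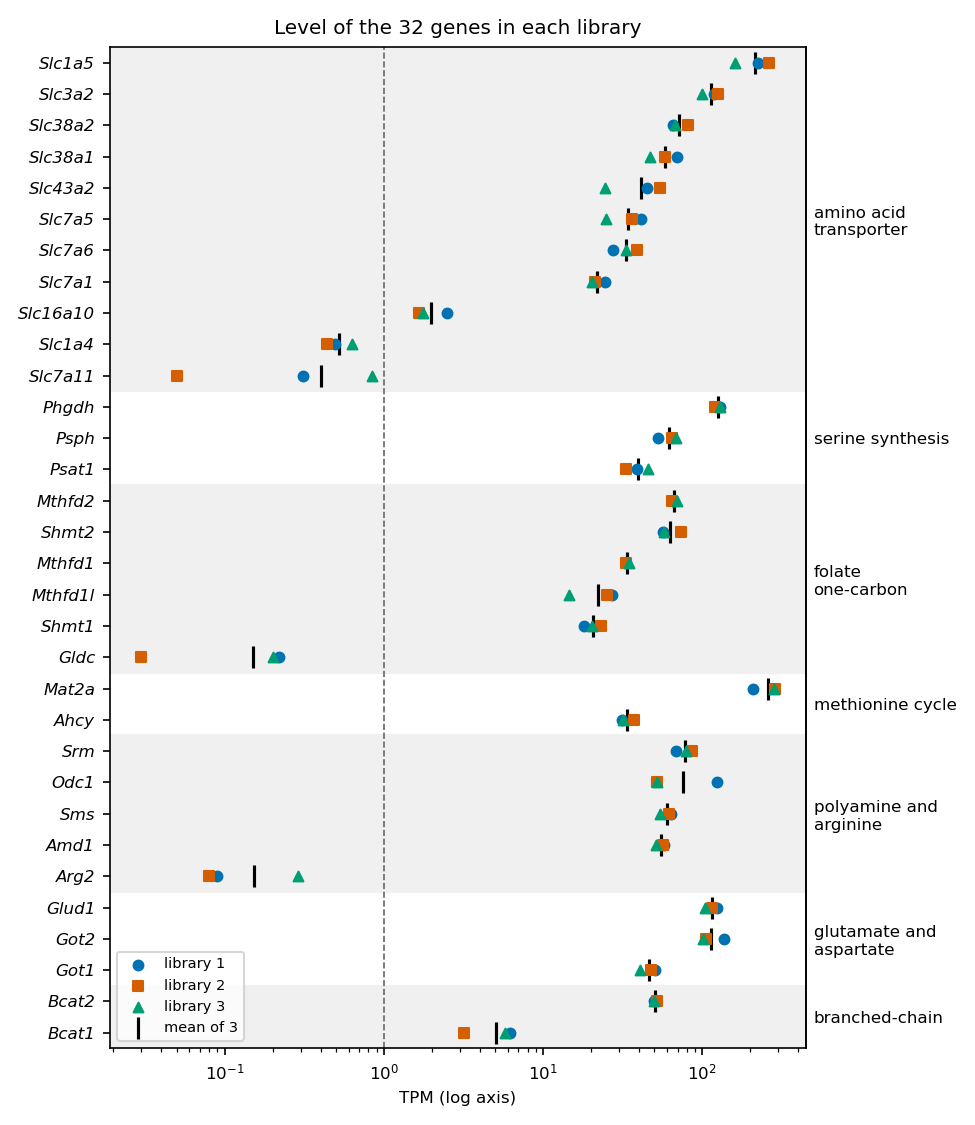
TPM of the 32 genes (log axis) in library 1 (circles), library 2 (squares) and library 3 (triangles), with the mean as a bar, grouped by role and ordered by mean. The dashed line marks 1 TPM, below which Slc7a11, Slc1a4, Gldc and Arg2 lie, while Mat2a and Slc1a5 have the highest means.

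Among the transporters, the carriers of neutral amino acids led. Slc1a5, the sodium-dependent exchanger ASCT2 that carries glutamine (ENSMUSG00000001918.17, mm10 chromosome 7, 16781340 to 16798274, plus strand), had 225, 261 and 160 TPM in libraries 1, 2 and 3. Its paralog Slc1a4, known as ASCT1, had 0.49, 0.44 and 0.63 TPM, from 36, 30 and 54 reads. The log2 ratio of Slc1a5 to Slc1a4, taken on TPM + 1 as for all pairs here, was 7.13 ± 0.45 (SD, n = 3). The 2 ranges were far apart in every library.

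Slc3a2, the CD98 heavy chain shared by several Slc7 light chains, had 118, 125 and 100 TPM. Slc7a5, the LAT1 light chain for leucine and other large neutral amino acids (mm10 chromosome 8, 121881150 to 121907694, minus strand), had 41.4, 36.2 and 24.7 TPM. The heavy chain thus exceeded this light chain in each library, with a mean log2 ratio of 1.74 ± 0.24. Other light chains of CD98 were also measured. Slc7a6, known as y+LAT2, had 27.3, 38.7 and 33.3 TPM, overlapping the range of Slc7a5. Slc7a11, the cystine and glutamate exchanger xCT, was close to absent at 0.31, 0.05 and 0.84 TPM.

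Slc7a1, the cationic amino acid transporter CAT1 that brings in arginine, had 24.5, 21.1 and 20.2 TPM. The log2 ratio of Slc7a6 to Slc7a1 was 0.56 ± 0.37 and did not exceed 2 SD, the limit set for a ratio past the spread between libraries. The sodium-coupled glutamine carriers Slc38a2 (SNAT2) and Slc38a1 (SNAT1) stood at 71.2 ± 8.45 and 58.4 ± 11.03 TPM. Their log2 ratio of 0.29 ± 0.33 was also within that limit, and its sign in library 1 differed from that in libraries 2 and 3. Slc43a2, the uniporter LAT4, had 44.7, 54.3 and 24.4 TPM, and the ratio of Slc7a5 to Slc43a2 did not pass either. Slc16a10, the aromatic amino acid transporter TAT1, was the lowest detected transporter at 2.49, 1.65 and 1.75 TPM.

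The enzymes of serine synthesis were all expressed. Phgdh, which commits a glycolytic intermediate to serine (mm10 chromosome 3, 98313170 to 98339990, minus strand), had 130, 121 and 128 TPM. Psph, the phosphatase of the last step, followed with 52.7, 64.1 and 68.1 TPM, and Psat1, the aminotransferase between them, with 39.0, 33.2 and 45.4 TPM. The ranges of Psph and Psat1 both lay below that of Phgdh. The log2 ratio to Phgdh was -1.67 ± 0.18 for Psat1 and -1.03 ± 0.22 for Psph. In a second, smaller gene table, whose reads are not divided by length, these ratios were 0.23 and 0.26. It kept 12.01% of the larger table's reads for Phgdh, against 40.65% for Psat1 and 43.78% for Psph.

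In the folate pathway, the mitochondrial member exceeded the cytosolic one for the enzyme that takes the carbon unit from serine. Shmt2, the mitochondrial serine hydroxymethyltransferase, had 56.8, 73.2 and 57.1 TPM, and cytosolic Shmt1 had 18.02, 23.2 and 20.2 TPM. Their log2 ratio was 1.56 ± 0.09. Downstream, mitochondrial Mthfd2, which oxidises methylene-folate, had 65.3, 64.6 and 68.9 TPM. Cytosolic Mthfd1, a trifunctional enzyme, had 33.4, 33.4 and 34.6 TPM, and mitochondrial Mthfd1l, the formyl-folate ligase, had 27.0, 25.1 and 14.6 TPM. The log2 ratio of Mthfd1 to Mthfd2 was -0.95 ± 0.02, the smallest SD of the 16 pairs, and that of Mthfd1l to Mthfd2 was -1.58 ± 0.51. In the smaller table, without division by length, they were 0.70 and 0.31. It kept 38.01% of the reads of Mthfd2, against 77.15% for Mthfd1 and 73.37% for Mthfd1l. Gldc, the decarboxylase of the glycine cleavage system, was below detection at 0.22, 0.03 and 0.20 TPM, from 15, 1 and 11 reads.

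The methionine cycle held the most abundant of the 32 genes. Mat2a, which makes S-adenosylmethionine outside the liver (mm10 chromosome 6, 72432799 to 72439558, minus strand), had 207, 285 and 280 TPM and ranked 574 among protein-coding genes by mean TPM. Ahcy, which clears S-adenosylhomocysteine, had 31.3, 37.3 and 31.9 TPM. Their log2 ratio was 2.89 ± 0.21, and Mat2a was above Ahcy in each library.

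The enzymes that make polyamines lay between 51.5 and 86.0 TPM, apart from Odc1 in library 1. Odc1, ornithine decarboxylase (mm10 chromosome 12, 17544794 to 17551505, plus strand), had 123.1 TPM in library 1, and 51.9 and 52.1 TPM in libraries 2 and 3. Srm, spermidine synthase, had 68.4, 86.0 and 79.5 TPM, and Sms, spermine synthase, had 63.7, 62.2 and 54.0 TPM. Amd1, which decarboxylates S-adenosylmethionine, had 57.2, 56.8 and 51.5 TPM. Neither Srm to Sms, at 0.37 ± 0.24, nor Odc1 to Amd1, at 0.33 ± 0.67, passed the limit of 2 SD. In the smaller table, which kept few reads of Sms and Amd1, they were 4.27 and 3.76 and passed. Without library 1 the ratio of Odc1 to Amd1 was -0.06. Arg2, the mitochondrial arginase, was below detection, with 2, 2 and 9 reads. Exact Poisson 95% intervals for these counts run up to 7.2, 7.2 and 17.1 reads and cover counting error only.

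Glud1, glutamate dehydrogenase, had 124, 116 and 105 TPM. Mitochondrial Got2 had 137, 105 and 100 TPM, above cytosolic Got1 with 50.6, 47.9 and 40.7 TPM in each library, and their log2 ratio was 1.27 ± 0.15. In the smaller table, not divided by length, this ratio was -0.53, with 11.03% of the reads of Got2 kept and 50.15% of those of Got1. Bcat2, the mitochondrial branched-chain aminotransferase, had 49.6, 52.0 and 49.7 TPM, while cytosolic Bcat1 had 6.21, 3.19 and 5.78 TPM. Their log2 ratio of 3.12 ± 0.47 also passed. Not every mitochondrial enzyme was the higher one, since Mthfd1l lay below cytosolic Mthfd1. In all, 11 of the 16 pairs had a ratio past the spread. The share among other gene pairs was not counted, so whether 11 is many cannot be said.

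**Figure D2:**
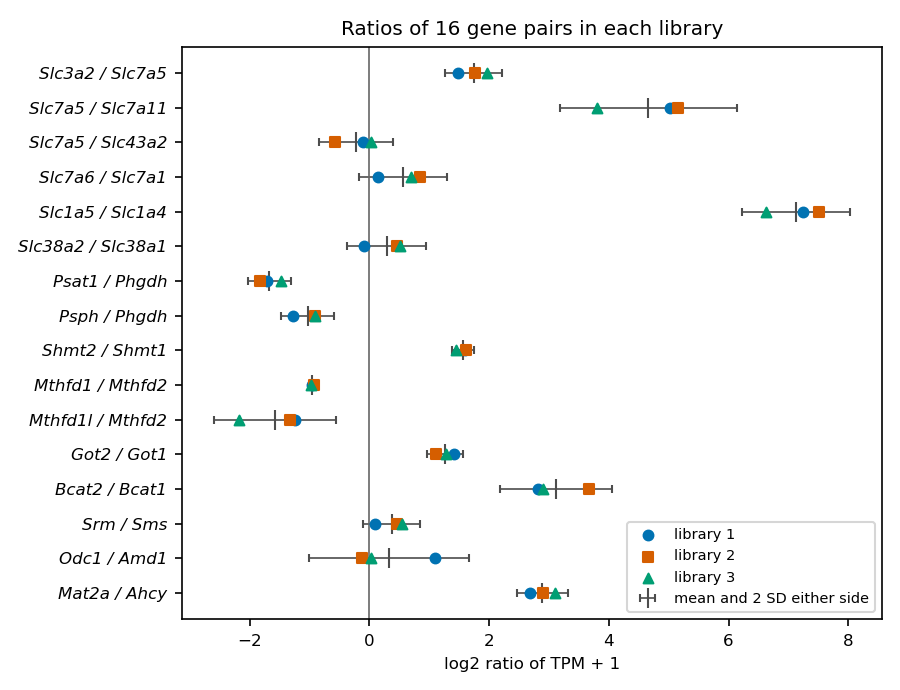
Log2 ratio of TPM + 1 for 16 gene pairs in library 1 (circles), library 2 (squares) and library 3 (triangles), with the mean and 2 SD either side. The bars of 5 pairs reach 0: Slc7a5 to Slc43a2, Slc7a6 to Slc7a1, Slc38a2 to Slc38a1, Srm to Sms and Odc1 to Amd1.

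The libraries differed from each other for nearly all of these genes, mostly by small factors. Reads were compared across the 3 libraries with a chi-square test, adjusted by Benjamini-Hochberg over all 17190 genes that averaged 10 or more reads. Of the 30 genes tested here, 29 passed at 0.05, beside 79.8% of all genes tested. Slc1a4 did not pass (adjusted p = 0.16), and Gldc and Arg2 had too few reads. Since the test compares libraries of 1 biological sample and detects small differences at this depth, differences are read below by their size. The median of the highest over the lowest library, in CPM (reads scaled to library size, here by TMM), was 1.29 for the 30 genes and 1.49 for all genes tested. Among genes averaging 500 or more reads it was 1.27 for 26 of them and 1.29 for all.

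A difference of 1.5-fold or more between the highest and the lowest library was found for 7 of the 30 genes, beside 49.5% of all genes tested. They were Slc7a11, Slc43a2, Odc1, Mthfd1l, Bcat1, Slc1a5 and Slc16a10. With 500 or more reads it was found for 4 of 26 genes, beside 23.7% of all such genes. By library, 10 genes were highest in library 1, where 32.8% of all genes tested were highest. Another 10 were highest in library 2, against 32.7% of all genes, and 10 in library 3, against 34.5%. These shares lie near those of all genes and say nothing particular about the 30. By deposited TPM the counts were 13, 11 and 6 for libraries 1, 2 and 3.

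Odc1 stood out in library 1. It had 161 CPM there, against 68.0 CPM in library 2 and 74.4 CPM in library 3, a 2.37-fold range. Its chi-square of 1598 was the largest of the 30 genes. The main coding transcript Odc1-201 had 105.5, 44.1 and 46.3 TPM, and Odc1-205, annotated as subject to nonsense-mediated decay, had 11.8, 5.72 and 5.40 TPM. Both were therefore highest in library 1. The erythroid and proliferation markers given above were also highest in library 1, and their part in this result was not tested. Srm, the next enzyme of the pathway, was lowest in library 1, with 53.5 CPM, against 68.3 CPM in library 2 and 66.5 CPM in library 3. Mat2a was lowest there too, with 326, 464 and 472 CPM (adjusted p = 4.33e-210).

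Slc43a2, Slc1a5, Slc7a5 and Mthfd1l were lowest in library 3, as were 41.7% of all genes tested. Slc43a2 had 45.1 CPM in library 3, against 86.3 CPM in library 1 and 120 CPM in library 2, a 2.66-fold range (adjusted p = 6.55e-228). Slc1a5 had 262 CPM in library 3, against 355 and 413 CPM, a 1.58-fold range, and Slc7a5 had 57.7 CPM, against 84.4 and 79.5 CPM. Mthfd1l had 34.8 CPM in library 3, against 61.1 and 56.4 CPM, a 1.76-fold range. Of the 11 transporters, 6 were lowest in library 3, and of all 30 genes 11 were, near the share of all genes. The transporters summed to 481 TPM there, against 618 and 678 TPM in libraries 1 and 2. The sum of the 21 enzymes was 1289 TPM in library 3, against 1340 TPM in both others. When a trend with transcript length and GC content was removed from each library, the range of Slc1a5 was 1.33-fold and that of Slc43a2 was 2.21-fold. Length and GC content were removed together, and their separate parts were not tested.

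**Figure D3:**
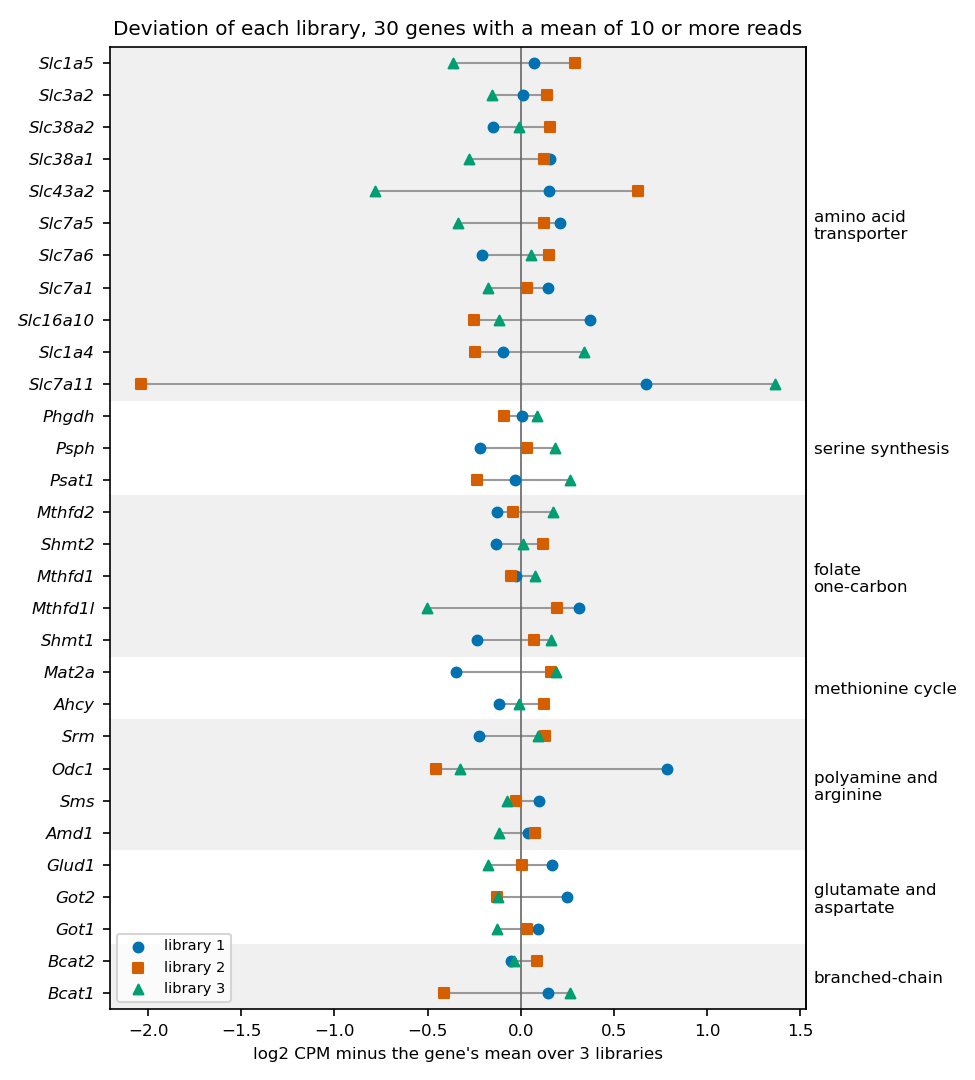
Log2 CPM of each library minus the gene's mean over 3 libraries, for the 30 genes that averaged 10 or more reads, grouped by role (circles, library 1; squares, library 2; triangles, library 3). Slc7a11 has the widest range, Odc1 is high in library 1, and Slc43a2, Slc1a5 and Mthfd1l are low in library 3.

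Slc7a11 varied most, at very low counts. It had 25, 3 and 45 reads in libraries 1, 2 and 3. The ratio of library 3 to library 2, scaled by library size, was 12.6 with an exact 95% counting interval from 4.04 to 63.3, and that of library 3 to library 1 was 1.63 with an interval from 0.98 to 2.77. Of its coding transcripts, Slc7a11-201 had 0.07, 0.01 and 0.11 TPM, and Slc7a11-205 had 0.0, 0.0 and 0.18 TPM. Coding transcripts held 22.6% of the gene's TPM in library 1 and 34.5% in library 3. Retained-intron transcripts held 77.4% in library 1 and 19.0% in library 3. A stretch of the 3′ untranslated region of Slc7a11-201 (transcript positions 3772 to 4356) also matches Tuba1b, an abundant alpha-tubulin gene. The match is on the opposite strand at 92.5% identity. Tuba1b had 13431, 8295 and 14949 reads, also lowest in library 2, and its part in the reads of Slc7a11 was not tested.

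Transcript estimates describe how each gene's TPM was split among its annotated transcripts. They depend on the model that divides reads between transcripts, so a share is a description. The median share of a gene's TPM on transcripts annotated as protein-coding was 88.5% over the 28 detected genes, against 86.3% over all detected protein-coding genes. In 16 of the 28, a single coding transcript held 50% or more in every library, against 56.8% of detected protein-coding genes. Phgdh-201 held 99.0 ± 0.35% of Phgdh, Ahcy-201 98.0 ± 0.48% of Ahcy, and Got2-201 97.8 ± 0.54% of Got2. Shmt2 was split between a coding transcript of 2238 bases, with 46.0%, 43.1% and 27.1%, and one of 2289 bases, with 31.6%, 24.2% and 54.5%, so that the leading transcript of library 3 was not that of libraries 1 and 2. Mthfd1l was split between the coding transcripts Mthfd1l-202, with 19.1, 11.2 and 6.35 TPM, and Mthfd1l-201, with 7.89, 13.7 and 8.23 TPM. The first led in library 1 and the second in libraries 2 and 3.

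In 3 of the 28 genes, Slc1a5, Sms and Slc16a10, coding transcripts held less than 50% on average, against 15.9% of detected protein-coding genes. For Slc1a5 the retained-intron transcript Slc1a5-202 held 50.1%, 55.6% and 42.4%, and the coding Slc1a5-201 held 38.3%, 33.1% and 43.8%. In TPM, Slc1a5-202 had 113, 145 and 67.8, a 2.14-fold range, whereas Slc1a5-201 had 86.1, 86.2 and 70.1, a 1.23-fold range. By these estimates, the low value of Slc1a5 in library 3 was mostly on the transcript that keeps an intron. The split of reads between the 2 transcripts was not tested. For Sms, Sms-204, annotated for nonsense-mediated decay, had 30.05, 28.6 and 29.6 TPM, and the coding Sms-201 had 16.6, 14.6 and 13.1 TPM. Slc16a10-204, a processed transcript with no annotated reading frame, held 58.7 ± 8.58% of Slc16a10. Shmt1 came next, with 54.7 ± 9.65% on coding transcripts (48.1%, 50.3% and 65.8% in libraries 1, 2 and 3). Slc7a6 followed, with 59.6 ± 3.41% on coding transcripts and 28.6 ± 0.56% on the retained-intron Slc7a6-207.

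**Figure D4:**
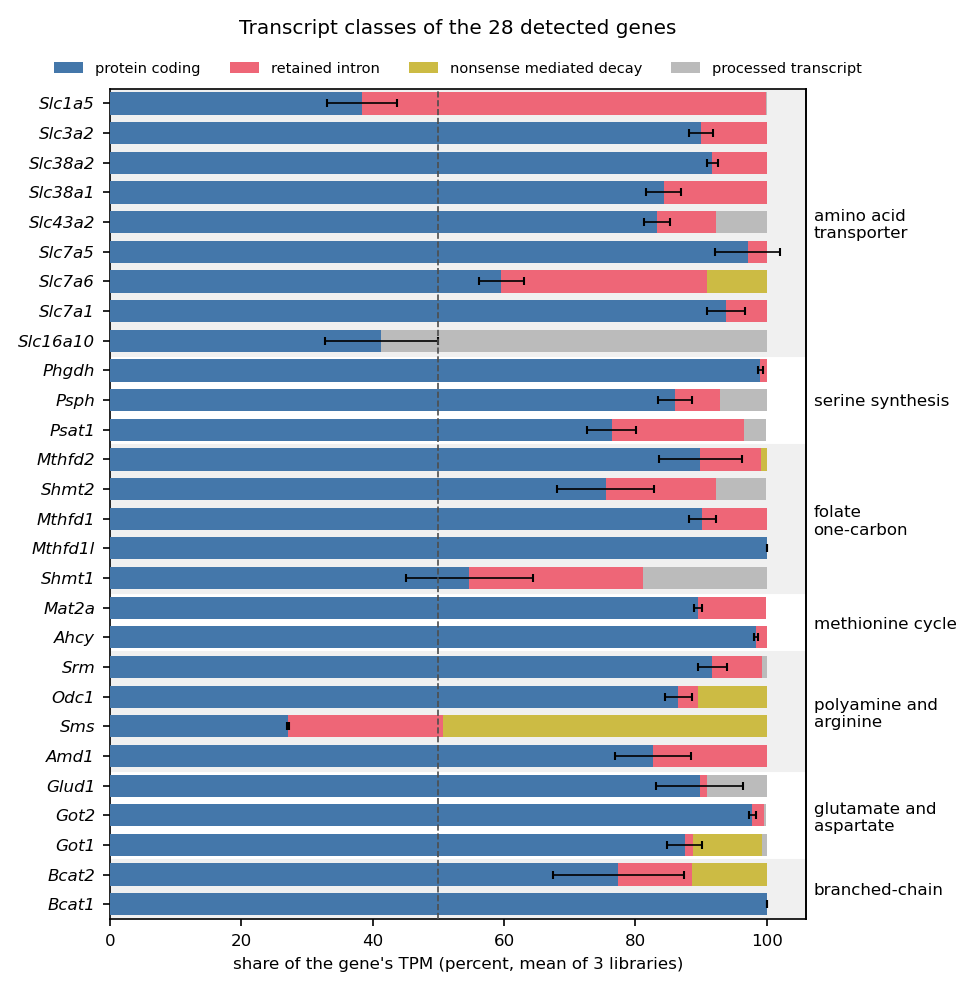
Share of each gene's TPM on protein-coding, retained-intron, nonsense-mediated decay and processed transcripts, as the mean of 3 libraries, for the 28 detected genes. Error bars are the SD of the coding share, and the dashed line marks 50%, which the coding shares of Slc1a5, Slc16a10 and Sms do not reach.

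Several of the enzymes share sequence with copies elsewhere in the genome, which bears on how reads are assigned. For each gene, every 50-base stretch of its leading coding transcript was looked up in the transcripts of all other genes. 16 of the 32 genes shared no stretch, and the share of all genes without one was not counted. The share was 87.6% for Amd1, 77.0% for Ahcy, 63.1% for Phgdh, 47.2% for Got2, 42.2% for Odc1 and 28.7% for Sms. Sms-ps, a processed pseudogene on chromosome X (62775585 to 62776685), matched Sms over 1101 bases at 100.0% identity. Amd2, a gene on chromosome 10 (35708675 to 35711892), matched Amd1 over 3202 bases at 99.6% identity, and Gm4737, on chromosome 16 (46152985 to 46155077), matched Ahcy over 2083 bases at 99.7%. The following 60-base coding stretches, from the GENCODE M21 transcripts, show how close the copies are, with differing bases in capitals.
Sms: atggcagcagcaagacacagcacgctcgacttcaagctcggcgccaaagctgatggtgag
Sms-ps: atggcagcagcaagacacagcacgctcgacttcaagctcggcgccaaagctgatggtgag
Amd1: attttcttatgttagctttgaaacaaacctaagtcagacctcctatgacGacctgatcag
Amd2: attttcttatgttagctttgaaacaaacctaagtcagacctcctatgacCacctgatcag
Ahcy: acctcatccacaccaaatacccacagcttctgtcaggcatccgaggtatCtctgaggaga
Gm4737: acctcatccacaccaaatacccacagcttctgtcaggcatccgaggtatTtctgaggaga

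The stretch of Sms begins at its start codon and is the same in Sms-ps, and the other stretches differ at 1 base each. A read within a stretch that does not differ cannot be told apart between gene and copy. The authors' estimates gave Sms-ps 589, 534 and 795 reads, which is 19.8%, 20.9% and 25.4% of the reads of Sms and Sms-ps together. Gm4737 was given 335, 197 and 194 reads, beside 1462, 1601 and 1741 for Ahcy. Amd2 took 1.5%, 1.6% and 2.7% of the reads of Amd1 and Amd2. With the copy's reads added, library 1 over library 3 was 1.05-fold for Sms, against 1.13-fold for Sms alone. Library 2 over library 1 was 1.08-fold for Ahcy with its copy, against 1.18-fold alone. These are the highest and lowest libraries of each gene alone. With the copy added and scaled by library size, Sms was lowest in library 2 and Ahcy in library 3. The values with the copy are therefore not full ranges.

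The smaller gene table deposited with each library held far fewer reads for the same 3 genes. Sms had 46, 42 and 34 reads in it, Amd1 had 19, 24 and 36, and Ahcy had 44, 48 and 49. These are 1.82%, 0.88% and 2.94% of their reads in the larger table on average, while 3.98% of 7669 genes with 500 to 20000 reads kept less than 5%. Over the 26 of the 32 genes in that range, the median kept was 36.9%, against 43.1% for all such genes. Phgdh kept 12.01%, Got2 11.03%, Odc1 16.2% and Mat2a 13.9%, whereas Mthfd1 and Mthfd1l, which share no stretch, kept 77.1% and 73.4%. Among these 26, genes without shared stretches also reached down to 24.1%, the value of Slc38a2. How the smaller table treats reads that match several places was not tested. Odc1 was highest in library 1 in this table as well, with 637, 353 and 411 reads and a 1.71-fold range.

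**Figure D5:**
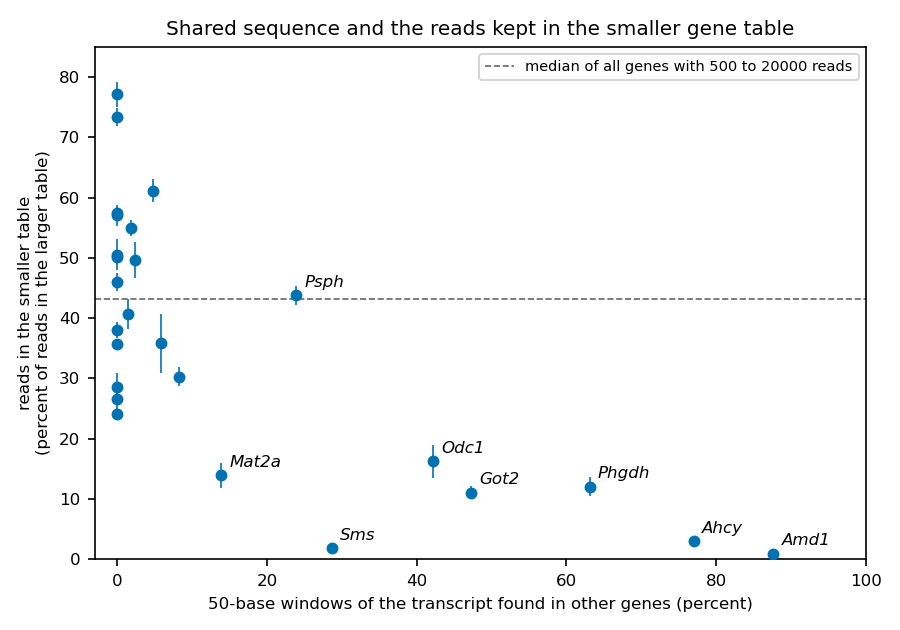
Reads in the smaller gene table as a percent of reads in the larger one (mean and SD of 3 libraries) against the percent of 50-base windows of the leading coding transcript that occur in other genes, for the 26 genes that averaged 500 or more reads. Amd1, Ahcy and Sms lie lowest, and the dashed line is the median of all genes with 500 to 20000 reads, 43.1%.

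Over their whole span, introns included, 8 of the 32 genes overlap an opposite-strand gene that averaged 10 or more reads. The share of all genes that do so was not counted. Whether the libraries keep strand is not given in the sources used here. Psph shares its 5′ end with Cct6a, a chaperonin subunit gene with 8194, 7159 and 8757 reads, Slc43a2 overlaps the antisense gene Gm45606 with 622, 683 and 509 reads, and Arg2 overlaps Vti1b with 1738, 1698 and 1951 reads. Slc7a5, Shmt1, Got2, Mat2a and Bcat2 also overlap such genes. Reads of the overlaps may belong to either gene.

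Promoter sequence was searched for sites of factors known to act on these pathways. ATF4, a transcription factor of the amino acid response, binds a composite element written TGATGNAA, and Myc binds the E-box CACGTG. Both strands of the RefSeq window from 250 bases before to 50 bases after each start site (GRCm38.p6) were searched for these letters, and the motifs can overlap each other by 2 bases at most. 27 of the 32 genes matched a window, 34 windows in all. No entry was matched for Slc7a5, Slc1a5, Slc38a1, Srm and Arg2. TGATGNAA occurred in 3 of the 34 windows, 8.8%, against 3.97% of 32851 windows of all genes. CACGTG occurred in 1 of 34, 2.9%, against 7.15%. Excerpts of 80 bases from the windows of the 4 genes follow on the sense strand of each gene, with the motif in capitals, because 2 of the 3 genes with TGATGNAA were below detection.
Slc7a11, chr3:50443627-50443706, minus strand: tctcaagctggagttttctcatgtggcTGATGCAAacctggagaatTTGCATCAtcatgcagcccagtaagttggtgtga
Slc1a4, chr11:20332674-20332753, minus strand: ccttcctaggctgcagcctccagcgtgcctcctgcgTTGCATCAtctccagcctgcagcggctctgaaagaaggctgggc
Got1, chr19:43524664-43524743, minus strand: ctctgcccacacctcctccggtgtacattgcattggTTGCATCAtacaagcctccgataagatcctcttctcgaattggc
Sms, chrX:157492441-157492520, minus strand: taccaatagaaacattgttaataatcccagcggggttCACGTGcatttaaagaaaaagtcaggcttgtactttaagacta

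Slc7a11 holds 2 matches, 1 on each strand. It had 0.40 ± 0.40 TPM, Slc1a4 0.52 ± 0.10 TPM and Got1 46.4 ± 5.14 TPM, while Atf4 itself had 75.3, 77.6 and 64.9 TPM. Genes that hold the motif were therefore found both near 0 and well expressed. A match of letters is a description and not a measured site.

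Other genes of these pathways were described from lists by role. For the counts in this and the next paragraphs, the shares over all genes were as follows. Of all protein-coding genes, 48.1% were detected. Among all genes tested, 79.8% passed the chi-square test and 49.5% differed by 1.5-fold or more, so passing was common to most genes. Of 28 other amino acid transporters, 15 were detected, and 21 of the 23 with enough reads passed the chi-square test between libraries. Their highest members were the mitochondrial aspartate and glutamate carrier Slc25a12 with 80.9 ± 4.85 TPM, Slc38a10 with 70.6 ± 13.2 TPM and the taurine transporter Slc6a6 with 62.7 ± 7.27 TPM. The lowest were Slc6a14 with 0.01 ± 0.02 TPM and Slc38a3 with 0.02 ± 0.04 TPM. 16 of the 23 differed by 1.5-fold or more, and 6 that averaged 50 or more reads had a range of 2-fold or more. Slc38a5, a glutamine carrier, had 10.7, 1.29 and 0.40 TPM in libraries 1, 2 and 3. The glycine transporter Slc6a9 had 5.21, 0.55 and 0.00 TPM, from 303, 30 and 0 reads, and 0 reads allows up to 3. Both were highest in library 1, as were the erythroid markers, and the part of such cells in them was not tested. Slc43a1, the LAT3 uniporter, had 28.9, 20.99 and 6.70 TPM, and Slc7a8, the LAT2 light chain, had 4.44, 4.21 and 0.80 TPM. Both were lowest in library 3, as were 41.7% of all genes tested. Slc43a3 had 19.4, 7.74 and 8.35 TPM and Slc7a2 had 1.08, 0.74 and 0.34 TPM.

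Of 19 other folate and one-carbon genes, 17 were detected and 18 passed the chi-square test. Izumo1r, the folate receptor FR4 known as a Treg surface marker, led with 306, 385 and 404 TPM. Dld, a shared dehydrogenase subunit that also serves glycine cleavage, had 78.0 ± 8.53 TPM, and Mthfs 66.2 ± 4.54 TPM. Amt, another glycine cleavage subunit, was low like Gldc at 0.30 ± 0.16 TPM, and so was mitochondrial Aldh1l2 at 0.25 ± 0.21 TPM. Of 10 methionine and transsulfuration genes, 6 were detected and all 7 tested passed. Mat2b, the regulatory subunit that binds Mat2a, had 236, 194 and 192 TPM, lowest in library 2 by CPM, whereas Mat2a was lowest in library 1. Adk, which removes the adenosine that Ahcy releases, had 108 ± 23.6 TPM and the salvage enzyme Mri1 95.1 ± 17.0 TPM. The liver form Mat1a stood at 0.07 ± 0.12 TPM and Cth, which makes cysteine from cystathionine, at 0.11 ± 0.12 TPM.

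Of 15 other polyamine and arginine genes, 13 were detected and 7 of 13 tested passed. Oaz1, the antizyme that inhibits ornithine decarboxylase, had 1838, 1647 and 1909 TPM, above Odc1 in every library. Sat1, which acetylates polyamines, had 275 ± 7.64 TPM and Azin1, the antizyme inhibitor, 73.4 ± 9.17 TPM. Paox had 7.14, 10.3 and 7.48 TPM. Nos2 and Agmat were at 0.08 ± 0.01 and 0.11 ± 0.10 TPM. Arg1, the cytosolic arginase, lies outside the rule for named genes and was added after its values were seen because Arg2 was near 0: it had 15.8, 15.7 and 9.78 TPM.

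Of 12 glutamine, asparagine and proline genes, 10 were detected and 10 of 11 tested passed. Aldh18a1, which starts proline synthesis, had 34.7 ± 3.28 TPM, while Gls2 and Pycr1 were lowest at 0.39 ± 0.21 and 0.40 ± 0.20 TPM. Asns, asparagine synthetase, differed most, with 20.3, 11.4 and 4.49 TPM (4.34-fold in CPM, adjusted p = 4.88e-81). Cad, of pyrimidine synthesis, had 21.5, 21.2 and 9.21 TPM, and Gpt2 6.62, 13.7 and 5.48 TPM. Asns, Cad and Gpt2 were named for a range of 2-fold or more. All were lowest in library 3, as were 41.7% of all genes tested. All 7 branched-chain genes were detected and 6 passed, from Mccc2 with 7.38 ± 1.49 TPM and Bckdhb with 7.60 ± 1.90 TPM to Bckdha with 43.3 ± 11.6 TPM, and Ivd and Bckdk with 48.3 TPM each.

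Of 11 genes of the amino acid response, 9 were detected and 9 of 10 tested passed. Myc, a regulator of many transporter genes, had 198, 217 and 175 TPM, and Atf4 72.6 ± 6.75 TPM. Ddit4, an inhibitor of mTOR signalling, had 78.9, 165 and 99.8 TPM, highest in library 2. Sesn2, a leucine sensor, had 6.32, 8.51 and 2.47 TPM and Eif2ak4, the kinase GCN2, had 9.04, 7.16 and 3.45 TPM. Both were lowest in library 3, as were 41.7% of all genes tested. Atf5 and Chac1, a known ATF4 target, were at 0.38 ± 0.06 and 0.16 ± 0.14 TPM.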

How the data were processed

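RNA-seq of 3 libraries of 1 biological replicate was used, as 1 group. Per the file headers, 1 gene table (the larger) and 1 transcript table per library follow the RSEM column layout, with mm10 and GENCODE M21 identifiers. Expected counts as deposited by the authors are estimated reads per gene or transcript, not normalized. TPM and FPKM as deposited were scaled by the authors for length and depth. The percent of a transcript is its deposited TPM over the summed TPM of its gene's transcripts. A second deposited table holds whole-number read counts for 22457 genes of GENCODE M4 and served as an alternative. The sources used here name no aligner, counter, kit or strandedness (not given). Spike-in and transfer RNA entries (0.166% to 0.229% of reads) were left out. Per library, 28419259 to 31959927 gene reads were available.

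Expected counts were rounded and tested by chi-square (2 degrees of freedom) against TMM library sizes from edgeR 4.0.16 in R 4.3.3, for genes that averaged 10 or more reads, at an adjusted p of 0.05. A quasi-likelihood contrast needs a second group and was not fitted. CPM had 0.5 reads added. Ratios used TPM + 1. DESeq2 1.42.0 gave alternative size factors. The chi-square procedure was run on simulated Poisson counts. These hold counting error only, so they cannot show how the test behaves with the further spread between real libraries. Copies were found by 50-base windows and BLAST 2.17.0 (identity of 90% or more over 200 bases or more); the larger table's effective lengths imply 50-base fragments. Calculations ran in Python 3.11.15 with scipy 1.17.1, numpy 2.4.6 and pandas 2.3.3. Promoter windows are from RefSeq.

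Named were all 32 genes, both genes of each pair, close copies, and of each related list the 3 highest, the 2 lowest and those with a 2-fold range and 50 or more reads. Some genes under this rule are not reported here, though list counts include them. The genes, lists and pairs were chosen with earlier results of these data known. The alternatives tried were other thresholds, filters and pseudocounts, size factors, FPKM, the authors' posterior mean estimates, the smaller table and leaving out each library.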

Additional observations from a re-analysis of the deposited data

How the results depend on the processing

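Of 68 alternative values for the counts and sums above, 58 stayed within 1.5 times the count or within 1 SD. With posterior mean estimates the median level was 45.5 TPM, the median coding share 86.3% and the summed enzyme level 1245 TPM. Over detected genes the median level was 56.8 TPM. The chi-square count was 19 in the smaller table, and 22 to 23 with 1 library left out. The count over 1.5-fold was 3 at 2-fold, 4 among genes with 500 or more reads (chosen after seeing the data), and 3 to 5 with 1 library left out, 3 of them without library 3. By deposited TPM, 6 genes were highest in library 3. A single coding transcript at 75% or more was found for 10 genes. Ranges tried after seeing the data fell below 1.5-fold for Slc1a5 in the smaller table (1.23) and for Slc1a5 (1.33) and Slc16a10 (1.44) with the length and GC trend removed.

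Smaller-table ratios, which are not divided by length, reversed to 0.23 for Psat1 to Phgdh, 0.26 for Psph to Phgdh, 0.70 for Mthfd1 to Mthfd2, 0.31 for Mthfd1l to Mthfd2 and -0.53 for Got2 to Got1. That table also kept unequal shares of the reads of these genes. In the larger table, reads not divided by length kept the order of the TPM for these pairs in every library. The part of the reads kept was not tested. With 1 library left out Odc1 to Amd1 was -0.06 to 0.55, the lowest without library 1, and 11 to 14 pairs passed. No paired analysis was possible because there was 1 group. Genes under about 50 reads are limited by depth, and 3 libraries of 1 sample say nothing of variation between animals.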
